A study of Mus musculus with 24 samples.

Results

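The genes described here are Cdh1, Cdh2, Cdh3, Epcam, Vim, Fn1, Cd44, Cldn3, Cldn4 and Cldn7, 10 named genes for adhesion, junction and cytoskeletal proteins that differ between epithelial and mesenchymal cells. They are 10 of the 21755 protein-coding genes annotated on chromosomes 1 to 19 and X. A gene's promoter was taken as 1 kb on each side of every annotated transcription start site, and 8 of the 10 genes had a peak of H3K9ac there in all 12 libraries. Cdh2 and Cdh3 had none in any library. Over all protein-coding genes, 49.5% had a promoter peak in all 12 libraries and 45.1% had one in none.

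H3K9ac, the acetylation of lysine 9 of histone H3, was profiled by ChIPmentation, in which the transposase Tn5 adds the sequencing adaptors to the immunoprecipitated chromatin, in 4T1 spheroids. 4T1 is a line from a mammary carcinoma of the mouse. The 4 groups had 3 libraries each and were collected on day 5: cells with a non-targeting guide against EGFP (scramble), CPT1a knockout cells, CPT1a knockout cells with 5 mM acetate, and KAT2a knockout cells. CPT1a brings long-chain fatty acids into mitochondria and KAT2a (GCN5) is a histone acetyltransferase, so that the comparisons ask how the mark at a gene changes without either protein and when acetate is supplied. Medium with 75 µM palmitate is given for scramble and for both knockouts without acetate, while the label of the acetate group names acetate alone. All cells, scramble included, came from a line with doxycycline-inducible Cas9 and were selected with puromycin, and whether the knockout lines were single clones is not given in the sources used here. The labels do not tie replicates to separate cultures, so that the p-values measure the spread between these libraries, which may be technical. Peak lists hold no measure of transcript or protein, and neither the knockouts nor the expression of the 10 genes could be checked in them.

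Epithelial cells are held together by E-cadherin (Cdh1) in adherens junctions, by claudins in tight junctions and by the adhesion molecule EpCAM along their lateral sides. In the epithelial to mesenchymal transition, repressors of the Snail and Zeb families bind E-box motifs in the promoters of such genes, and N-cadherin (Cdh2), the intermediate filament vimentin (Vim) and the matrix protein fibronectin (Fn1) gain in expression. H3K9ac lies on the nucleosomes that flank the start sites of active genes, and a broad domain of it reaches into the gene body.

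Promoter sequences from RefSeq (assembly GRCm38.p6, 250 bases before to 50 bases after a start site) matched 6 of the 10 genes. Those of Epcam, Cldn3, Cldn4 and Cldn7 are shown because the number of libraries whose peaks overlapped these bases differed between groups, and that of Vim because it was covered whole in every library. They are written 5′ to 3′ on the strand of the gene, and capitals mark matches, on either strand, to the E-box CAGGTG, the GC box GGGCGG, the TATA box TATAAA, the AP-1 motif TGANTCA and the NF-kB consensus. Epcam lies at chr17:87635729-87636028 (plus strand), Cldn3 at chr5:134985964-134986263 (plus), Cldn4 at chr5:134946885-134947184 (minus), the second start site of Cldn7 at chr11:69965171-69965470 (plus) and Vim at chr2:13574061-13574360 (plus).
Epcam: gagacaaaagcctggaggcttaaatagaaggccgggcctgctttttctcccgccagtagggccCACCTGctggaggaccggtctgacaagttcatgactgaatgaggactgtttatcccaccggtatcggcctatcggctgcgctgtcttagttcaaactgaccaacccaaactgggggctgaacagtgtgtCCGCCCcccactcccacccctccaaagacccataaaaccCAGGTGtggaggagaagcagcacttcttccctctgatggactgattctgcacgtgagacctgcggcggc
Cldn3: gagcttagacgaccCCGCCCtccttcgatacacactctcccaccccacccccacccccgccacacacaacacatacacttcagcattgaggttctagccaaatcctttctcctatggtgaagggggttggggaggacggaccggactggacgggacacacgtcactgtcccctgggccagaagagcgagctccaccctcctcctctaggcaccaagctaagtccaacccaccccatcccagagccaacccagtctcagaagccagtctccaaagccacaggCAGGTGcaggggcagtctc
Cldn4: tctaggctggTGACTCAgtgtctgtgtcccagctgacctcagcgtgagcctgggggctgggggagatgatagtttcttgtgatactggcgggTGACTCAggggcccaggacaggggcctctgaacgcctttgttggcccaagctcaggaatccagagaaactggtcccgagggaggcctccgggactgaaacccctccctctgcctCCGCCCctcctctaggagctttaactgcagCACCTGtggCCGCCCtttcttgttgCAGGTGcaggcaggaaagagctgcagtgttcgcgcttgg
Cldn7: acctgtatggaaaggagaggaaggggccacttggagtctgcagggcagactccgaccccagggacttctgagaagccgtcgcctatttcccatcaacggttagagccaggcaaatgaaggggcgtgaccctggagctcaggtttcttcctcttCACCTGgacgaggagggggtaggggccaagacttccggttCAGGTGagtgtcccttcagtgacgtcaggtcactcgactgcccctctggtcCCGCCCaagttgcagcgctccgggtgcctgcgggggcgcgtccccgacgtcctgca
Vim: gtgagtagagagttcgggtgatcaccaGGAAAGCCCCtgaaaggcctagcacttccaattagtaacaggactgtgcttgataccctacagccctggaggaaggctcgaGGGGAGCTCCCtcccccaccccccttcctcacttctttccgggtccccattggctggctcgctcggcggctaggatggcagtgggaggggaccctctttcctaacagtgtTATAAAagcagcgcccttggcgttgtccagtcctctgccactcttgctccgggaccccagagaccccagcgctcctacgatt

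The E-box occurred 2 times each in the windows of Epcam, Cldn4 and the second start of Cldn7, 1 time in that of Cldn3 and not in those of Vim, Cd44 or the first start of Cldn7, against 20.2% of the 32851 promoters of the table with a match. The GC box occurred in all of them but Vim and the first start of Cldn7 (35.7% of all promoters). Cldn4 had 2 AP-1 matches (7.81% of all promoters). Vim had a TATA box from 32 to 27 bases before its start site (13.6% of all promoters) and 3 NF-kB matches, 2 of which overlap (8.46% of all promoters). A match is a description of the letters, and no factor was measured. The GC content was 57% for Epcam, 60.7% for Cldn3, 61% for Cldn4, 62.3% for the second start of Cldn7 and 59.3% for Vim, where the median of all promoters was 52.7%.

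The lists held from 16201 to 34330 peaks. Those of scramble were the longest, with narrower peaks (median width 630.3 ± 51.3 bp, SD, n = 3) than those of the CPT1a knockout (1054 ± 83.8 bp), the knockout with acetate (901.7 ± 84.0 bp) and the KAT2a knockout (993.7 ± 76.4 bp). The calling depth, a mean genome coverage recovered from the peak statistics, was lowest in CPT1a knockout library 3 (0.554) and acetate library 2 (0.660) and from 1.02 to 2.52 in the other 10. The coverage recovered at single peaks was a whole number in 100% of peaks in most libraries. It was so in 3.05% to 6.40% in scramble library 1, CPT1a knockout libraries 1 and 3 and KAT2a knockout libraries 2 and 3. There the calling depth may not be the library's own coverage. Because enrichment is not scaled between libraries, a gene's strength is given as the percentile, among the 10777 genes marked at the promoter in all 12 libraries, of its strongest promoter peak by fold enrichment, and its width as the percentile of the summed width of its promoter peaks. Of 5 epithelial markers, Epcam and Cdh1 among them, 5 had a promoter peak in all 12 libraries. Of 5 endothelial markers none had one in any library, of 5 blood cell markers 4 had none and Cd68 had one in 2 libraries, and of 5 fibroblast markers Pdgfrb, Dcn and Lum had none while Pdgfra had one in 12 and Col1a1 in 11.

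By median strength over the 12 libraries the 8 genes ordered with the mesenchymal genes on top. These also have more annotated start sites, each of which adds a window: 11 for Fn1, 8 for Cd44 and 6 for Vim. Cldn7 has 5, Epcam 4, Cdh1 3, and Cldn3 and Cldn4 1 each. What this adds to the order was not tested. The median percentile over the 12 libraries was 81.8 for Cd44, 80.0 for Vim, 62.2 for Fn1, 41.5 for Cdh1, 23.0 for Epcam, 13.1 for Cldn3, 12.4 for Cldn4 and 1.59 for Cldn7. Cd44 ranked above Vim in 5 of 12 libraries and Cldn3 above Cldn4 in 4 of 12, so that neither pair had a fixed order. Fn1 ranked above Cdh1 in 12 of 12 libraries. Single libraries broke the order elsewhere. In KAT2a knockout library 1 Cldn4 (58.0) and Epcam (52.6) stood above Fn1 (44.0), and in library 3 Cd44 (20.4) stood below Epcam (46.2). In CPT1a knockout library 1 Vim (20.8) stood below Epcam (31.8). By width the order was Vim (median percentile 96.5), Cd44 (88.6), Fn1 (75.3), Cldn4 and Cldn3 (both 54.9), Cdh1 (49.5), Epcam (26.2) and Cldn7 (3.46), and each of the top 2 was above the next in 12 and 11 of 12 libraries.

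**Figure D1:**
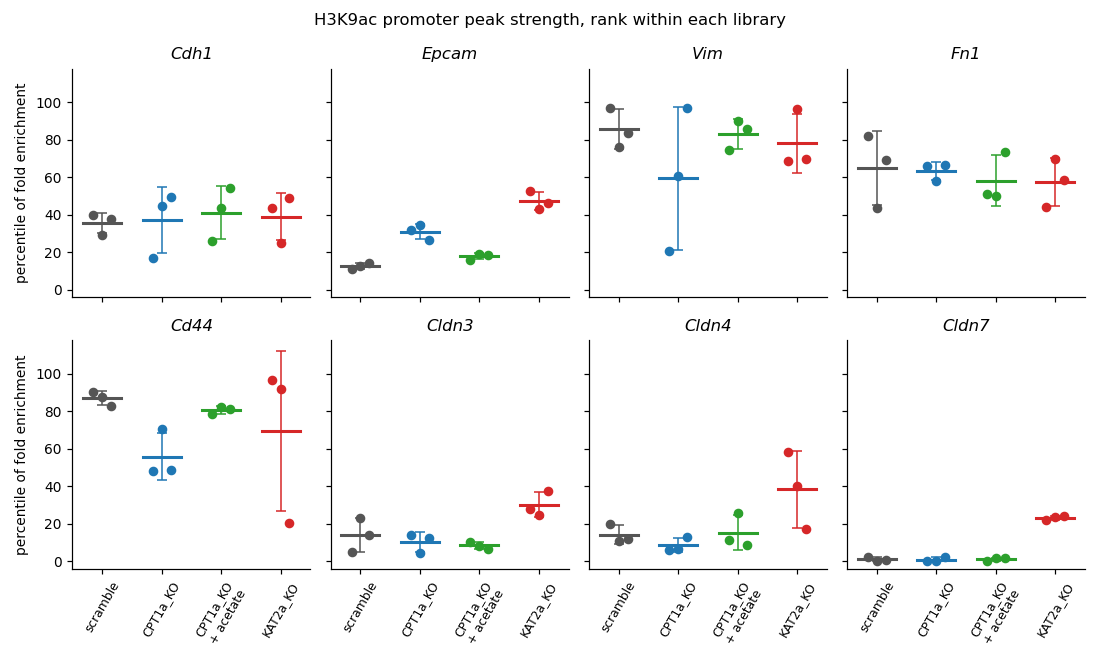
Strength of the promoter peak of 8 genes as a percentile within each library (vertical axis, 0 to 100), with points for the 3 libraries of a group, a horizontal line at the mean and bars of 1 SD. Epcam and Cldn7 stand highest in the 3 KAT2a knockout libraries, and Cd44 and Vim spread over most of the scale.

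Cdh1 (ENSMUSG00000000303.12, chr8:106603351-106670246, plus strand) had a promoter peak from 1818 to 4265 bp wide at a middle strength. Its strength percentile was 39.7, 29.4 and 37.8 in scramble libraries 1 to 3, 16.9, 44.9 and 49.7 in the CPT1a knockout, 25.9, 43.7 and 54.1 with acetate, and 43.4, 24.8 and 49.0 in the KAT2a knockout. The groups overlapped throughout. The difference from scramble was 1.503 ± 10.1 percentile points (SE) for the CPT1a knockout, 5.597 ± 10.1 with acetate and 3.45 ± 10.1 for the KAT2a knockout, with limma adjusted p of 0.944, 0.808 and 0.896. In base pairs the Cdh1 promoter peaks were narrower in the 9 other libraries (2245 ± 296 bp, SD) than in scramble (3338 ± 809 bp, n = 3), without overlap (exact permutation p = 0.00455, unadjusted, the lowest possible with 3 against 9 libraries). In width rank the same difference was -6.64 ± 5.34 points (adjusted p = 0.397). A share over all genes was not computed for widths in base pairs. All peaks of a scramble library together covered 34.5 to 46.2 Mb, against 19.5 to 35.4 Mb in the 9 others.

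Cdh3 (P-cadherin, chr8:106510891-106557297), the neighbour of Cdh1, had no promoter peak. Its gene body held 1 peak of 200 bp in intron 2, in KAT2a knockout library 1. Cdh2 (chr18:16588877-16809246) had no peak in its body or within 5 kb of it in any library. Of the mesenchymal genes here, N-cadherin was the one without a peak.

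Epcam (ENSMUSG00000045394.9, chr17:87635979-87651129, plus strand) had the largest difference of the 8 genes between the KAT2a knockout and scramble, in strength and in width. Its strength percentile was 10.9, 12.7 and 14.3 in scramble, 31.8, 34.5 and 26.7 in the CPT1a knockout, 16.2, 19.3 and 18.8 with acetate, and 52.6, 43.1 and 46.2 in the KAT2a knockout. The 4 groups did not overlap at any point of the scale. The KAT2a knockout was 34.6 ± 4.41 points (SE) above scramble (limma adjusted p = 0.00582) and the CPT1a knockout 18.3 ± 4.41 points above it (adjusted p = 0.0280). With acetate, Epcam was 12.9 points below the CPT1a knockout (adjusted p = 0.402, unadjusted p in that comparison under 0.05 for Epcam alone of the 8 genes) and 5.45 points above scramble (adjusted p = 0.524). The call for the CPT1a knockout was lost when any of 5 single libraries was left out (adjusted p up to 0.0821). It was also lost with the GC trend removed (0.0635), with normal scores (0.0729), with the number of peaks as a covariate (0.355) and with the replicate block (0.0569).

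The Epcam peaks themselves had another shape in the KAT2a knockout. Their summed width was 2085, 2179 and 1961 bp in scramble, 1556, 1696 and 1170 bp in the CPT1a knockout, 1760, 1307 and 2041 bp with acetate, and 3400, 4087 and 3515 bp in the KAT2a knockout. All 3 KAT2a knockout libraries lay above the other 9. In width rank the KAT2a knockout was 60.2 ± 4.62 points above scramble (adjusted p = 1.89e-04), and it placed 4th of 10777 genes among increases. In scramble the domain was split, with 2 promoter peaks and a further peak in intron 2, from 2446 to 2998 bp past the gene's 5′ end, that was a separate call in 3 of 3 scramble libraries and in no other library, while the KAT2a knockout peaks ran across it. When peaks within 500 bp were merged, an alternative chosen after the data were seen, the difference was 47.2 points (adjusted p = 7.50e-04).

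**Figure D2:**
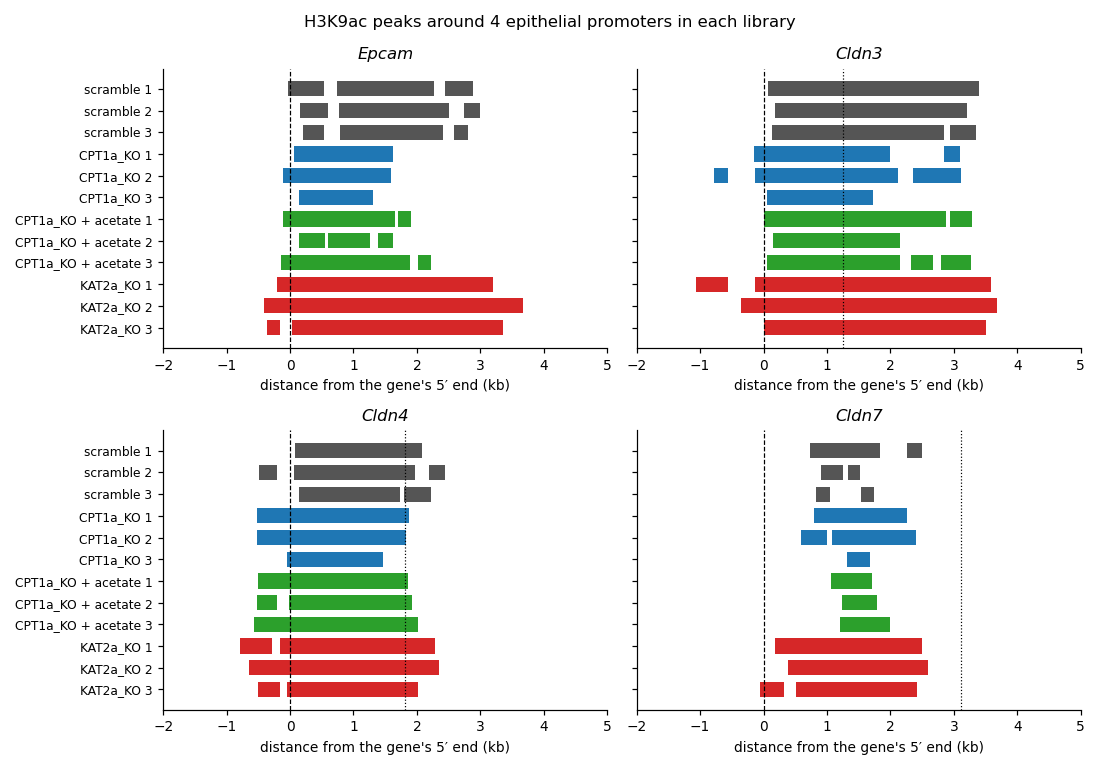
Peaks around Epcam, Cldn3, Cldn4 and Cldn7 in each of the 12 libraries (rows), by distance from the gene's 5′ end in kb (horizontal axis), with a dashed line at the 5′ end and a dotted line at the 3′ end where it falls in view. Bars are called peaks, and those of the KAT2a knockout run furthest past the 5′ end at Epcam and Cldn3.

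Cldn7 (ENSMUSG00000018569.12, chr11:69964779-69967885, plus strand) had the weakest promoter peaks of the 8 genes outside the KAT2a knockout. Its strength percentile was 2.18, 0.0696 and 0.626 in scramble, 0.297, 0.162 and 2.27 in the CPT1a knockout, 0.0418, 1.51 and 1.67 with acetate, and 21.9, 23.7 and 23.9 in the KAT2a knockout. The KAT2a knockout was 22.2 ± 3.79 points above scramble (limma adjusted p = 0.0159). Without KAT2a knockout library 2 that adjusted p was 0.0502. The peaks were 1340, 555 and 418 bp wide in scramble, 1476, 1725 and 370 bp in the CPT1a knockout, 657, 567 and 780 bp with acetate, and 2323, 2215 and 2300 bp in the KAT2a knockout, a rise in width rank of 44.3 ± 6.71 points over scramble (adjusted p = 0.00436). The gene was not called in every library at equal calling depth, in lists of equal length or above a -log10 q of 5, so that it has no value under these settings.

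Cldn3 (ENSMUSG00000070473.4, chr5:134986214-134987472, plus strand) and Cldn4 (ENSMUSG00000047501.3, chr5:134945119-134946934, minus strand) encode claudins of the tight junction. The strength of Cldn3 was 4.83, 23.0 and 14.0 in scramble, 14.1, 4.20 and 12.2 in the CPT1a knockout, 10.3, 8.36 and 6.51 with acetate, and 28.1, 24.8 and 37.6 in the KAT2a knockout. These last 3 values lay above the other 9, though the difference from scramble missed the threshold (16.2 ± 5.80 points, limma adjusted p = 0.141). At equal calling depth it was 21.5 points with an adjusted p of 0.0252. Cldn4 stood at 19.8, 10.6 and 12.03 in scramble, 6.14, 6.47 and 12.8 in the CPT1a knockout, 11.1, 25.8 and 8.76 with acetate, and 58.0, 40.1 and 17.2 in the KAT2a knockout. There, library 3 overlapped with scramble (24.3 ± 9.06 points, adjusted p = 0.155), and without it the adjusted p was 0.0479.

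In width both claudins passed the test. Cldn3 peaks were 3323, 3036 and 2719 bp in scramble, 2147, 2472 and 1675 bp in the CPT1a knockout, 2879, 2004 and 2094 bp with acetate, and 4219, 4036 and 3514 bp in the KAT2a knockout, which was 37.4 ± 6.71 points above scramble in rank (adjusted p = 0.00809). Cldn4 peaks were 2007, 2184 and 1603 bp in scramble, 2395, 2353 and 1519 bp in the CPT1a knockout, 2372, 2256 and 2593 bp with acetate, and 2957, 2990 and 2397 bp in the KAT2a knockout. The width rank of Cldn4 exceeded that of scramble in the CPT1a knockout (31.2 ± 5.33 points, adjusted p = 0.00542), with acetate (33.9 ± 5.33 points, adjusted p = 0.00525) and in the KAT2a knockout (43.8 ± 5.33 points, adjusted p = 0.00188). In base pairs the CPT1a knockout exceeded scramble by 157.7 bp with overlapping values (exact permutation p = 0.6), so that its call came from rank. With peaks within 500 bp merged the adjusted p was 0.0649 for the CPT1a knockout and 0.0513 with acetate, and with the number of peaks as a covariate 0.154 and 0.0638.

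The peaks overlapped the printed promoter windows to differing extents. All but that of Vim were printed because these counts differed, and no share over all promoters was computed. Of the windows not printed, that of Cd44 was overlapped in 12 libraries and the first start of Cldn7 in 1. At Epcam, a peak overlapped the window in 3 of 3 KAT2a knockout libraries (102 to 300 of the 300 bases), in 2 of 3 with acetate, and in 1 of 3 each of scramble and the CPT1a knockout. At Cldn3 the counts were 3 of 3 in the KAT2a knockout, 2 of 3 in the CPT1a knockout, 1 of 3 with acetate and 0 of 3 in scramble. At the second start of Cldn7 they were 3 of 3 in the KAT2a knockout (188 to 300 bases), 1 of 3 in the CPT1a knockout and 0 of 3 in the other 2 groups. At Cldn4 all 9 libraries outside scramble had a peak over 102 to 300 bases of the window, against 1 of 3 in scramble with 40 bases. The Vim window was covered whole in 12 of 12 libraries.

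**Figure D3:**
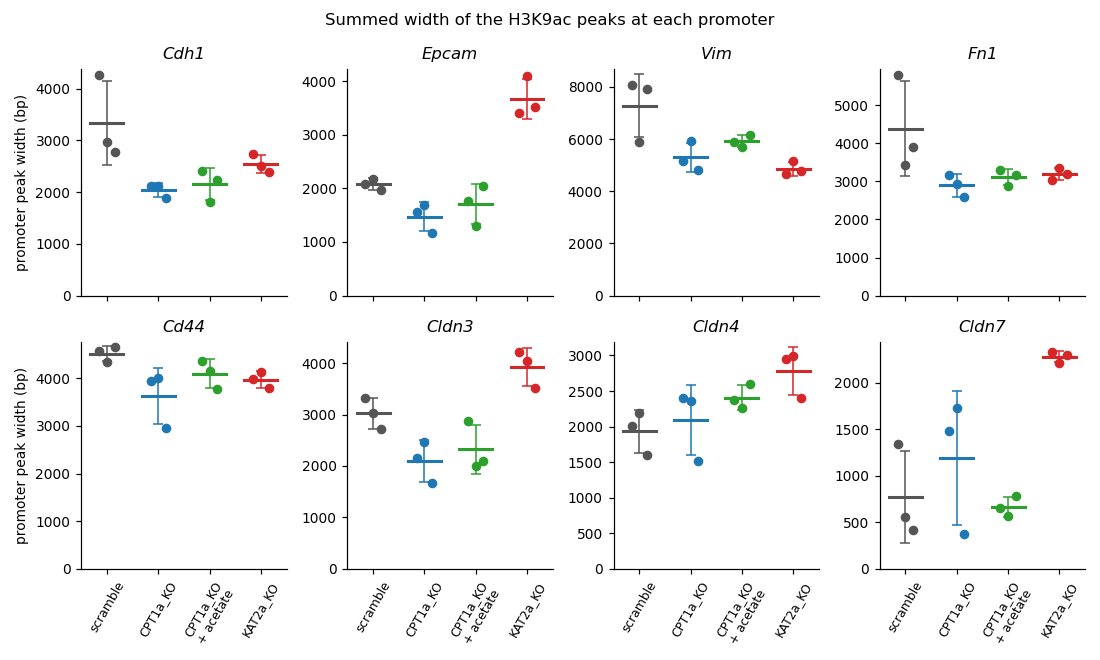
Summed width of the promoter peaks in bp (vertical axis, from 0, with its own scale for each gene), with points for libraries, lines for group means and bars of 1 SD (n = 3). The KAT2a knockout lies above the other groups at Epcam, Cldn3 and Cldn7, while scramble has the widest mean at Cdh1, Vim, Fn1 and Cd44.

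Vim (ENSMUSG00000026728.9, chr2:13573927-13582826, plus strand) carried the widest promoter peak of the 8 genes in each library. Its width was 8065, 5878 and 7910 bp in scramble, 5158, 5913 and 4825 bp in the CPT1a knockout, 5898, 5697 and 6158 bp with acetate, and 4647, 5157 and 4789 bp in the KAT2a knockout. The width percentile stayed between 92.8 and 98.2. The strength was far less steady, at 97.2, 76.3 and 83.7 in scramble, 20.8, 60.8 and 96.9 in the CPT1a knockout, 74.3, 89.9 and 85.7 with acetate, and 68.6, 96.4 and 69.7 in the KAT2a knockout. The lowest and the second highest of the 12 values belonged to replicates of the CPT1a knockout, and no comparison of Vim passed the test (adjusted p from 0.324 to 0.985 in strength).

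Fn1 (ENSMUSG00000026193.15, chr1:71585520-71653200, minus strand) had a strength of 82.2, 43.8 and 69.0 in scramble, 65.8, 57.9 and 66.4 in the CPT1a knockout, 51.3, 49.9 and 73.7 with acetate, and 44.0, 69.6 and 58.6 in the KAT2a knockout. All groups overlapped. Its promoter peak also contained the start site of Apol7d, an antisense gene 363 bp inside Fn1, in all 12 libraries, and the 2 cannot be told apart. Fn1 peaks in the 9 other libraries (3065 ± 240 bp) were narrower than in scramble (4378 ± 1252 bp), without overlap (exact permutation p = 0.00455, unadjusted, with no share over all genes computed), while the width rank differed by -0.23 ± 4.42 points (limma adjusted p = 0.979).

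Cd44 (ENSMUSG00000005087.17, chr2:102811141-102901665, minus strand), the hyaluronan receptor, had a strength of 90.3, 87.6 and 83.0 in scramble, 47.9, 70.3 and 48.9 in the CPT1a knockout, 78.4, 82.5 and 81.2 with acetate, and 96.5, 91.6 and 20.4 in the KAT2a knockout. The CPT1a knockout lay below scramble and below the acetate group without overlap. Its difference from scramble was -31.3 ± 16.3 points (limma adjusted p = 0.253), and the acetate group exceeded it by 25.0 ± 16.3 points (adjusted p = 0.713). The KAT2a knockout had an SD of 42.6 points, and without its library 3 the difference between the CPT1a knockout and scramble was the same and had an adjusted p of 0.0173. By -log10 p in place of fold enrichment it was -29.6 points (adjusted p = 0.0396). The peak widths gave no such separation of the knockout from the acetate group, with 3952, 4002 and 2955 bp against 4361, 4162 and 3767 bp.

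The strength calls of the 8 genes were read against the share of all genes called. In the KAT2a knockout against scramble, 2 of 8 were called, both higher (Epcam and Cldn7), where 4.32% of all 10777 genes were called. In the CPT1a knockout against scramble 1 of 8 was called (9.9% of all genes), with acetate against scramble 0 of 8 (5.91%, and at an unadjusted p under 0.05 0 of 8 and 2371 of all genes), and in the 9 other libraries against scramble 1 of 8 (11.8%), in which Epcam was 19.5 ± 3.60 points higher. With acetate against the CPT1a knockout limma called 0 of 8 and 0 of all genes, with 1009 genes at an unadjusted p under 0.05. The KAT2a knockout was compared with the other 2 treated groups after its values had been seen. Against the CPT1a knockout limma called 0 of 8 and 0 of all genes in strength (unadjusted p under 0.05 for 4 of the 8 and for 1150 genes), and against the acetate group 0 of 8 (0.00928% of all genes, and unadjusted p under 0.05 for 4 of the 8 and for 771 genes).

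With the number of peaks per library as a covariate, which itself differs between scramble and the rest, 0 of 8 and 0 of all genes were called in strength between the KAT2a knockout and scramble by limma, with 1310 genes at an unadjusted p under 0.05 (Epcam adjusted p = 0.102).

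The widths separated the KAT2a knockout more widely. Against scramble 4 of 8 were called, all higher (Epcam, Cldn3, Cldn4 and Cldn7), where 13.8% of all genes were called in either direction. Against the CPT1a knockout 1 of 8 was called (Epcam, 60.1 ± 4.62 points, limma adjusted p = 0.00173), where 6 genes, or 0.0557%, were called in all. By the width of the strongest peak alone this Epcam call was lost. Against the acetate group 2 of 8 were called (Epcam, 57.2 ± 4.62 points, adjusted p = 0.00137, and Cldn7, 45.4 ± 6.71 points, adjusted p = 0.0417), of 20 genes or 0.186%. The Cldn7 call was lost when any of 9 single libraries was left out, with adjusted p up to 0.149. The CPT1a knockout against scramble gave 1 of 8 (Cldn4, 16.9% of all genes), acetate against scramble 1 of 8 (Cldn4, 13.3%), and the 9 other libraries against scramble 3 of 8 (Epcam, Cldn4 and Cldn7, 23.8%). The mean width rank of Epcam was 24.2 in scramble, 24.3 in the CPT1a knockout, 27.2 with acetate and 84.4 in the KAT2a knockout. For Cldn7 it was 2.35, 15.3, 1.25 and 46.6 in the same order. Fewer of the 3 were called with the number of peaks as a covariate or with peaks within 500 bp merged. With acetate against the CPT1a knockout limma called 0 of 8 and 0 of all genes, with unadjusted p under 0.05 for 0 of the 8 and for 814 genes. Comparisons that share scramble or the KAT2a knockout share those libraries, and their counts are not independent.

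Groups without overlap were counted beside the test. In strength they were found for 2 of 8 genes in the CPT1a knockout against scramble (Epcam higher, Cd44 lower, 30.9% of all genes), for 3 in the KAT2a knockout (Epcam, Cldn3 and Cldn7 higher, 29.3%), for 2 with acetate against scramble (Epcam higher, Cd44 lower, 31.9%), for 2 with acetate against the CPT1a knockout (Cd44 higher, Epcam lower, 14.2%) and for 1 in the 9 other libraries against scramble (Epcam higher, 12.6%). Against the CPT1a knockout the KAT2a knockout was higher without overlap at Epcam, Cldn3, Cldn4 and Cldn7 (4 of 8, 15.3% of all genes), and against acetate at Epcam, Cldn3 and Cldn7 (3 of 8, 14.9%). In width the counts were 2 of 8 for the CPT1a knockout against scramble (Cd44 and Cldn4 higher, 35% of all genes), 5 for the KAT2a knockout (the 4 called genes and Cd44, all higher, 34.9%), 1 with acetate (Cldn4, 33.9%) and 1 in the 9 other libraries (Cldn4, 17.1%). These are width ranks, and in bp Cd44 was lower than scramble without overlap in both knockouts (differences of -886 bp for CPT1a and -546.3 bp for KAT2a). With acetate against the CPT1a knockout the count in width was 0 of 8 (13.1%). The KAT2a knockout was higher in width without overlap at Epcam, Cldn3, Cldn4 and Cldn7 against the CPT1a knockout (4 of 8, 13.2%) and against acetate, where Vim was lower (5 of 8, 15.1%).

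**Figure D4:**
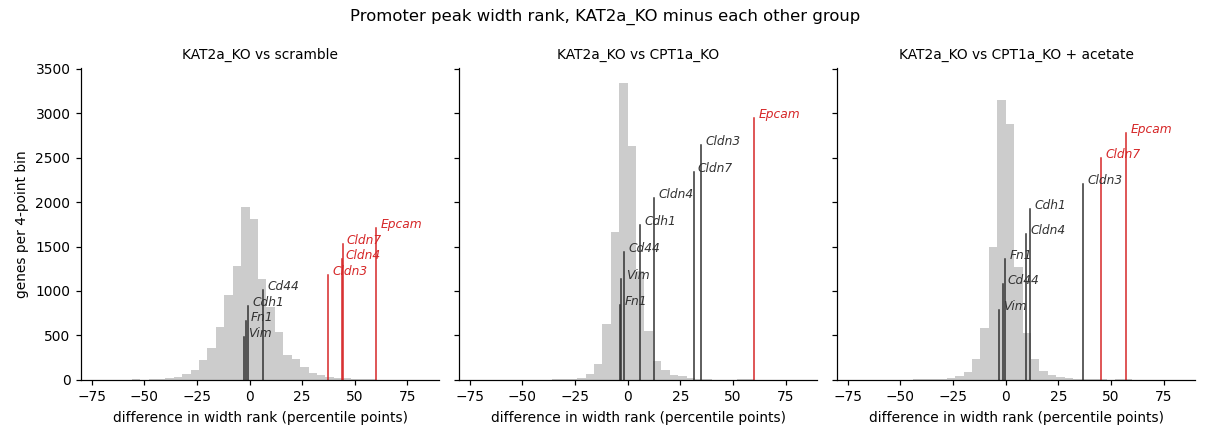
Differences in promoter width rank (horizontal axis, percentile points) between the KAT2a knockout and each other group, with grey bars for the number of genes in bins of 4 points over all 10777 genes and lines for the 8 genes, red where the limma adjusted p is under 0.05. Line heights are set for legibility and carry no value. Epcam lies at 60.2, 60.1 and 57.2 points.

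In their bodies the 10 genes held 22 further regions with a peak apart from the promoter. The most regular lay in intron 2 of Cdh1, at chr8:106621652-106623930, 18301 to 20579 bp past the 5′ end, and was called in 12 of 12 libraries. Its percentile among all peaks of a library was 75.2, 57.9 and 66.4 in scramble, 48.5, 57.5 and 36.5 in the CPT1a knockout, 54.3, 57.1 and 61.0 with acetate, and 57.6, 62.6 and 49.96 in the KAT2a knockout. On this scale the CPT1a knockout lay below scramble without overlap (difference -19.0 points, exact permutation p = 0.1, the smallest 3 against 3 libraries allow). The 9 other libraries were 12.6 points lower than scramble with overlap (exact permutation p = 0.0409, unadjusted for the 7 comparisons made). A percentile among all peaks depends on the length of a list, and the scramble lists were the longest. Placed among the promoters, as for strength, the region stood at 22.5, 8.12 and 13.2 in scramble. It stood at 4.75, 7.86 and 10.2 in the CPT1a knockout, 8.04, 14.0 and 11.4 with acetate, and 8.33, 13.9 and 6.56 in the KAT2a knockout. All groups overlapped with scramble there.

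Intron 1 of Cd44 held 4 regions, of which the most often called were these. The nearer, at chr2:102895679-102898077 from 3588 to 5986 bp past the 5′ end, was called in 3 of 3 scramble, 0 of 3 CPT1a knockout, 3 of 3 acetate and 2 of 3 KAT2a knockout libraries. The peaks there summed to 2284, 1342 and 1437 bp in scramble and 766, 200 and 640 bp with acetate, and were 200 bp each in both KAT2a knockout libraries. Their highest -log10 q was 20.3, 9.53 and 8.00 in scramble, 7.15, 2.11 and 4.89 with acetate, and 4.65 and 4.72 in the KAT2a knockout. Outside scramble, acetate library 1 alone kept a call at a -log10 q of at least 5. The farther, at chr2:102874185-102875234 from 26431 to 27480 bp past the 5′ end, was called in 3, 2, 1 and 3 libraries of the same groups. Over all 10 genes a library had 13, 8 and 12 such body peaks in scramble, 4, 3 and 1 in the CPT1a knockout, 7, 3 and 9 with acetate, and 8, 8 and 2 in the KAT2a knockout. The 9 other libraries had 6 fewer than scramble (5 ± 3 against 11 ± 2.65, SD, exact permutation p = 0.0273). At equal calling depth both means were 1.33 (exact permutation p = 1), and with peaks within 500 bp merged they were 3.56 and 3.67 (exact permutation p = 1).

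**Figure D5:**
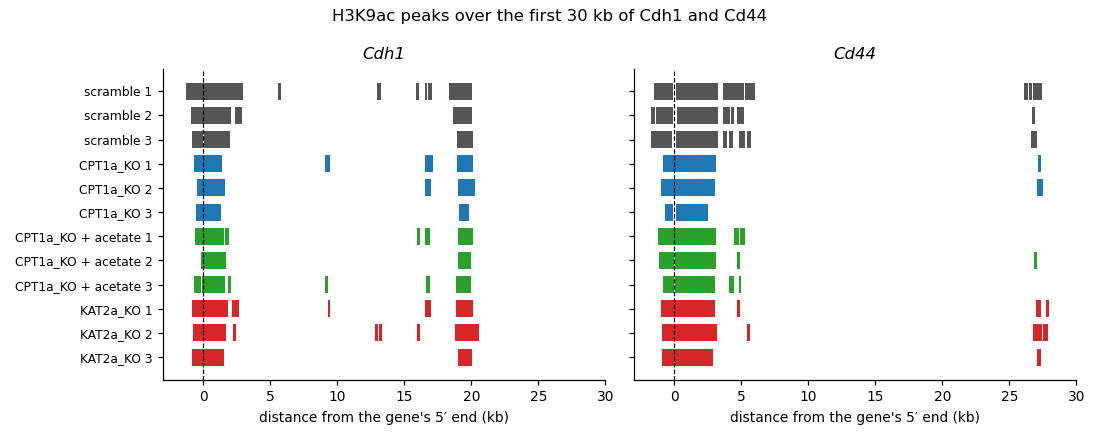
Peaks over the first 30 kb of Cdh1 and Cd44 in each library (rows), by distance from the gene's 5′ end in kb (horizontal axis, dashed line at 0). The intron 2 region of Cdh1 near 20 kb is present in all 12 libraries, and the region of Cd44 that starts 3588 bp from the 5′ end is missing from the 3 CPT1a knockout libraries.

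Wider lists of the same kind were set beside the 10 genes. Of 40 further epithelial junction genes 31 had a promoter peak in all 12 libraries, and Cldn1 and Cldn8 had one in none. Of 27 further mesenchymal adhesion and matrix genes 13 had one in all 12, and 11 had one in none, among them the cadherin genes Cdh4, Cdh6 and Cdh11, the myofibroblast genes Acta2, Tagln and Cnn1, and the matrix gene Postn. In strength, 1 of the 31 epithelial genes was higher and 4 were lower in the 9 other libraries than in scramble, where 11.8% of all genes were called. Pkp3 (plakophilin 3) was 43.7 ± 9.49 points higher (limma adjusted p = 0.0156), while Ctnnd1 (p120 catenin) differed by -35.3 ± 5.46 points (adjusted p = 0.00386), Cldn6 -33.6 ± 8.34 points (adjusted p = 0.0272) and Pkp2 -23.3 ± 3.51 points (adjusted p = 0.00356). The median difference was -3.38 points over the 31 genes and 0.044 over all genes. With the number of peaks as a covariate, 0 of all genes were called in strength in this comparison, so that all these calls were lost. Ctnnd1, whose protein binds the cytoplasmic tail of E-cadherin, ranged from 89.7 to 96.3 in scramble and from 44.5 to 72.8 in the other 9 libraries.

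In width, 8 of the 31 epithelial genes were higher and 0 lower in the 9 other libraries, where 23.8% of all genes were called, with Nectin2 (42.0 ± 3.69 points, limma adjusted p = 1.90e-04), Nectin1 (37.6 ± 5.86, adjusted p = 0.00246) and Jup (30.9 ± 5.17, adjusted p = 0.00350) among the most changed. Nectins are adhesion molecules of the adherens junction, and Jup encodes plakoglobin. The median difference was 6.81 points over the 31 genes and -0.14 over all genes. Of the 13 mesenchymal genes, 2 were lower in strength, Thbs1 (-43.0 ± 9.50 points, adjusted p = 0.0164) and Sparc (-24.5 ± 4.42 points, adjusted p = 0.00693), and 2 were higher in width, Plaur (29.5 ± 5.42 points, adjusted p = 0.00517) and Has2 (23.4 ± 5.59 points, adjusted p = 0.0157), with median differences of -7.36 points in strength and 3.07 points in width. Over all genes 11.8% were called in strength and 23.8% in width. In the KAT2a knockout against scramble alone, 6 of the 31 epithelial genes were higher in width and 0 lower, and 2 of the 13 mesenchymal genes were higher and 0 lower, where 13.8% of all genes were called.

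Over the 12 libraries, the promoters whose strength varied most like that of Cdh1 were Rom1 and Eml3, which share a promoter (Pearson r = 0.876), and Insr (r = 0.868). For Vim they were Pdrg1 (r = 0.912), Utrn (r = 0.894) and Trps1 (r = 0.888). These are the highest values among the genes tested, over libraries that share their differences in depth, and they are given as a description.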

How the data were processed

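H3K9ac ChIPmentation gave 12 peak lists, 3 for each of 4 groups, and the 12 input libraries and the Drosophila spike-in (dm6) were not used here. Per the study's methods reads were cleaned with fastq-mcf, aligned with BWA and freed of duplicates with Picard, while the submitters' processing notes name Bowtie2, SAMtools, MACS2, deepTools and mm10. The labels and the methods also give different antibody catalogue numbers. The version of MACS2 and its use of inputs are not given in the sources used here. Peaks were called per library.

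The deposited lists give for each peak a fold enrichment over the local background as the ratio column. Its deposited −log10 p and −log10 q columns hold each peak's significance from the caller, and the deposited score is the −log10 q multiplied and cut to a whole number. No counts or library depths are given, and the calling depth was recovered from the peak statistics. No other sample's columns were used, and intervals for counting error could not be given.

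Promoters were windows of 1000 bp on each side of every start site (GENCODE vM21), met by a peak with at least 1 bp. Strength and width ranks were tested with limma 3.58.1 (R 4.3.3) over all 12 libraries, with group means as terms and Benjamini-Hochberg adjustment over 10777 genes at a threshold of 0.05. Exact permutation tests were two-sided. In a simulation of the KAT2a knockout against scramble on 10777 genes, shifts of 20 and 40 points were recovered in 1% and 13% of the changed genes. The changed genes were a small set drawn from those of middle mean rank. Recovery at genes of low rank, such as Epcam and Cldn7, was not simulated, so that these shares do not describe them. The genes and lists were chosen with earlier results of these data known. All 10 genes are named, with up to 4 called genes per list by size of the difference between the 9 other libraries and scramble, list genes without a peak, and the 3 genes most like Cdh1 and Vim, except that 1 list gene is not reported here. The comparisons of the KAT2a knockout with the CPT1a knockout and with the acetate group, and the merging of peaks within 500 bp, were chosen after the data were seen. Python 3.11.15, pandas 2.3.3, numpy 2.4.6, scipy 1.17.1 and matplotlib 3.10.9 were used.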

Additional observations from a re-analysis of the deposited data

How the results depend on the processing

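Of the genes, 7 rather than 8 were called in all libraries at equal calling depth, in lists of equal length and at a -log10 q of at least 5. Counts below are genes of the 8 called by limma, and the cause of each change was not tested. In strength, the CPT1a knockout against scramble gave 1, but 2 by -log10 p (1 higher, 1 lower) and 0 with the GC trend removed, with normal scores, with the number of peaks as covariate and with the replicate block. The KAT2a knockout against scramble gave 2, but 4 by -log10 p, 1 in lists of equal length, 1 at a -log10 q of at least 5 and 0 with the covariate. The 9 other libraries against scramble gave 1, but 2 by -log10 p and 0 with the covariate. The KAT2a knockout gave 0 against the CPT1a knockout and 0 against acetate, but 2 and 2 by -log10 p.

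In width, the CPT1a knockout against scramble gave 1, but 0 with the covariate, 2 by the strongest peak and 0 with peaks within 500 bp merged. The KAT2a knockout against scramble gave 4. Of these, Cldn7 had no value at equal calling depth, in lists of equal length or at a -log10 q of at least 5. Acetate against scramble gave 1, but 0 with the covariate and 0 merged. The 9 other libraries gave 3, but 0 with the covariate and 1 merged. The KAT2a knockout against the CPT1a knockout gave 1, but 2 with normal scores and 0 by the strongest peak. Against acetate it gave 2, but 1 at equal calling depth, in lists of equal length, at a -log10 q of at least 5, with the replicate block, by the strongest peak and merged. Body peaks in the 9 other libraries against scramble differed by -6, by 0 at equal calling depth, by 0.222 in lists of equal length, a reversal, and by -0.111 merged.

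Leaving out 1 library at a time gave 0 to 2 genes in strength for the CPT1a knockout and 1 to 3 for the KAT2a knockout against scramble. In width it gave 1 to 2 for the CPT1a knockout against scramble, 2 to 3 for the 9 other libraries, and 1 to 2 for the KAT2a knockout against acetate. The difference in body peaks ranged from -7.5 to -5, with an exact permutation p of 0.0909 without scramble library 1 or 3. Same-numbered libraries did not deviate together (correlations from -0.0618 to 0.0673 over 18 pairs, and 2 of 12 libraries were nearest to their own number), so that the replicate block is given only as an alternative setting. Over single genes, 0 values reversed, while 22 lost and 15 gained a call under other settings.

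Over all genes, limma called 466 in strength between the KAT2a knockout and scramble, but 2161 by -log10 p, 973 at equal calling depth, 282 with the GC trend removed, 304 with the replicate block and 0 with the covariate (1310 at an unadjusted p under 0.05). For the CPT1a knockout 1067 became 3082, 1690 and 0 by -log10 p, at equal depth and with the covariate, for acetate against scramble 637 became 2352, 1112 and 4 (400 with the GC trend removed), and for the 9 other libraries 1270 became 3542, 2014 and 0. With 1 library left out, the strength counts against scramble ran from 130 to 570 for the KAT2a knockout and from 481 to 1055 for the CPT1a knockout. They ran from 261 to 766 for acetate and from 560 to 1361 for the 9 other libraries. In width the covariate turned 1820 into 55 for the CPT1a knockout, 1486 into 532 for the KAT2a knockout, 1437 into 381 for acetate and 2565 into 433 for the 9 other libraries, and the strongest peak gave 902 for acetate. In width the KAT2a knockout against the CPT1a knockout gave 6 genes and 2 to 7 under other settings, and against acetate 20 and 6 to 39. The other comparisons between treated groups gave 0 to 27 genes under other settings, and 0 to 32 with 1 library left out.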
